A study of Mus musculus with 4 samples.

Results

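Dsp, Fam163b, C1ql2, Btbd3, Adcy1, Dgkh and Prox1 are 7 of the 32285 mouse genes counted in this spatial series, and they are known as genes of dentate granule cells. They were chosen by symbol because earlier results from the same sections showed them high in the dentate gyrus. Their level there is therefore a description and was not tested, while the comparison of trained with untrained mice was. Spatial gene expression was measured with Visium slides on 4 coronal sections that include the dorsal hippocampus, 1 section per mouse (2 trained and 2 untrained mice), where every capture spot carries a barcode of its own and samples the few cells above it. All 4 were adult male ArcCreERT2::eYFPflx mice on a C57BL/6 background, 3 to 4 months old, a line that tags cells in which the activity-regulated gene Arc was transcribed while tamoxifen was present: Cre is made under Arc control and leaves a lasting eYFP label, encoded at R26, in them. Trained mice learned to avoid a shocked sector of a rotating arena, untrained mice had the same sessions with the shock off, and every mouse was given 4-hydroxytamoxifen under isoflurane before the retention test and was killed 3 days after it. Expression was counted in UMIs, molecular barcodes that count an mRNA molecule only once, and levels are given as CPM, a gene's UMIs for every 1000000 UMIs of all genes in the same spots.

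Granule cells are the principal neurons of the dentate gyrus. They are packed in a thin, dense layer, receive cortical input from the entorhinal cortex, and send mossy fiber axons to CA3 pyramidal cells and to the mossy cells of the hilus. New granule cells are added through adult life, and the transcription factor Prox1 sets and keeps their identity. The genes have different roles. Prox1 is the transcription factor, Adcy1 is a calcium-stimulated adenylyl cyclase that makes cyclic AMP, and Dgkh is a kinase that turns diacylglycerol into phosphatidic acid. C1ql2 is a secreted C1q-like protein of mossy fiber synapses, Dsp is desmoplakin, which ties intermediate filaments to desmosomes in epithelia and heart, and Btbd3 is a BTB-domain protein that orients dendrites toward active inputs in cortex.

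All 7 are protein-coding genes, placed here by gene ID on GRCm38. Prox1 (ENSMUSG00000010175) lies at chr1:190118035-190170714 on the minus strand and C1ql2 (ENSMUSG00000036907) at chr1:120340582-120343174 on the plus strand. Adcy1 (ENSMUSG00000020431) is at chr11:7063489-7178506 on the plus strand and Dgkh (ENSMUSG00000034731) at chr14:78558750-78732776 on the minus strand. Dsp (ENSMUSG00000054889) is at chr13:38151294-38198577 on the plus strand, Btbd3 (ENSMUSG00000062098) at chr2:138256565-138589292 on the plus strand and Fam163b (ENSMUSG00000009216) at chr2:27110380-27142491 on the minus strand. Prox1 overlaps the antisense gene Prox1os, which had 220 UMIs over the 4 sections and 20 in the dentate gyrus, where Prox1 had 111 (and 515 elsewhere). Whether the counting used strand is not given in the sources used here.

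Promoter windows of 300 bases, from 250 before to 50 bases after a transcription start, were read from RefSeq (GRCm38.p6), which held 11 windows for the 7 genes. They are shown for Prox1, Dsp and C1ql2, the genes with the highest ratio between the dentate gyrus and the rest of the section, and for Adcy1, the gene with the most UMIs, to show what the starts of genes that are high in the same layer hold. Capitals mark 2 kinds of match on either strand, the GC box GGGCGG (or CCGCCC) and the E-box CAGATG (or CATCTG) that neurogenic basic helix-loop-helix factors such as NeuroD proteins can bind. The windows are at chr1:190170778-190171077 (minus strand) for Prox1, chr13:38151044-38151343 (plus) for Dsp, chr1:120340332-120340631 (plus) for C1ql2 and chr11:7063183-7063482 (plus) for Adcy1, each written 5′ to 3′.
Prox1: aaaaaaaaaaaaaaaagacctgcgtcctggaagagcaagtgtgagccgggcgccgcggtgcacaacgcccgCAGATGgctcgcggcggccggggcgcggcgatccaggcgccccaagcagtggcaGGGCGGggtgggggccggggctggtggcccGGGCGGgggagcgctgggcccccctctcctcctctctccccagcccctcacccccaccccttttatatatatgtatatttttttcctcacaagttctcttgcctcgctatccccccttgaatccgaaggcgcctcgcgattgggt
Dsp: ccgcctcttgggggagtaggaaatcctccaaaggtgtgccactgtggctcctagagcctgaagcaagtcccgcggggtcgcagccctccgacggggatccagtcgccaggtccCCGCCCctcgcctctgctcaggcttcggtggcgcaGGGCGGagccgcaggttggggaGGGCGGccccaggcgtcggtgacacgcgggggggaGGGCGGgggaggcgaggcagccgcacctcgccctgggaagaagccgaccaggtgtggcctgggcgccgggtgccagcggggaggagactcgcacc
C1ql2: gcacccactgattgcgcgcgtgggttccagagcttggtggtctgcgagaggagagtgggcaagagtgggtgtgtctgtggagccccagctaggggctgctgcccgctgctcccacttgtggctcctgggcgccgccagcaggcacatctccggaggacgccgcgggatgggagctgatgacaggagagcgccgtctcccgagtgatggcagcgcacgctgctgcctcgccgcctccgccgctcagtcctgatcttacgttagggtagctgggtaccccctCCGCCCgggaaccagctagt
Adcy1: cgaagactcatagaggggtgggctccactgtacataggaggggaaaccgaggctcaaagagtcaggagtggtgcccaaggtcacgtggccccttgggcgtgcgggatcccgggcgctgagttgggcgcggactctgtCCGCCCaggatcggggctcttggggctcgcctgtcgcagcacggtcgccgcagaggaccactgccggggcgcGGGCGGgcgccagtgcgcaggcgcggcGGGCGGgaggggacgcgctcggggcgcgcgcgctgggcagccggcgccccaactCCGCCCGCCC
GC boxes were in 8 of the 11 windows, against 35.7% of 32851 windows of the same length. Each of the 7 genes had at least 1 window with a GC box, where Btbd3, Dgkh and Prox1 have more than 1 window. The 4 windows shown are also rich in G and C, at 64.3% for Prox1, 73.0% for Dsp, 67.3% for C1ql2 and 74.0% for Adcy1, where the median window of the genome table had 52.7%. Among the windows not shown, those at 44.7% (Btbd3) and at 42.0% and 46.0% (Dgkh) lay below that median and held no match. The E-box CAGATG was in 1 of the 11 windows and in 17.2% of all windows. It was in the Prox1 window shown, 179 bases before the start, and not in the other window of Prox1. The palindromic E-box CAGCTG, in 16.3% of all windows, and the full cyclic AMP response element TGACGTCA, in 1.79%, were in none of the 11. A match says only that the letters are there.

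Trained 1 and 2 held 2865 and 3055 spots over tissue, with 7119995 and 10330015 UMIs, and untrained 1 and 2 held 2359 and 2661, with 3560294 and 6581748. Untrained 1 was the shallowest, at a median of 1048 UMIs per spot against 1851 to 2493 in the others. The tissue label reads hippocampus, but each section also held cortex, thalamus, hypothalamus and striatum-like tissue by marker genes. Spots were assigned to 14 regions by lists of marker genes that hold none of the 7 genes. For 4400 of the 10940 spots no region was given. Their leading score was too low, their patch too small, or their hippocampal call (dentate gyrus, CA1 or CA3) lay apart from the largest linked group of such calls. They count among all other spots. The dentate gyrus list (C1ql3, Plk5, Tdo2, Glis3, Dock10, Lrrtm4, Trpc6, Npnt, Rfx3, Synpr and Lct) found 72, 69, 71 and 63 spots, with 228198, 211757, 102622 and 211164 UMIs. In all 4 sections the summed level of that list was highest in these spots, at 1034, 713, 1189 and 976 CPM. The CA3 list was highest in its own region in only 1 of the 4 sections, and untrained 1 had 9 CA3 spots, so that the CA3 values below are weak. A spot mixes granule cells with interneurons, mossy cells and glia, and fewer cells of a type cannot be told apart from less RNA per cell. The 4 sections share 1330 barcodes, which are positions of the slide design, not cells.

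**Figure D1:**
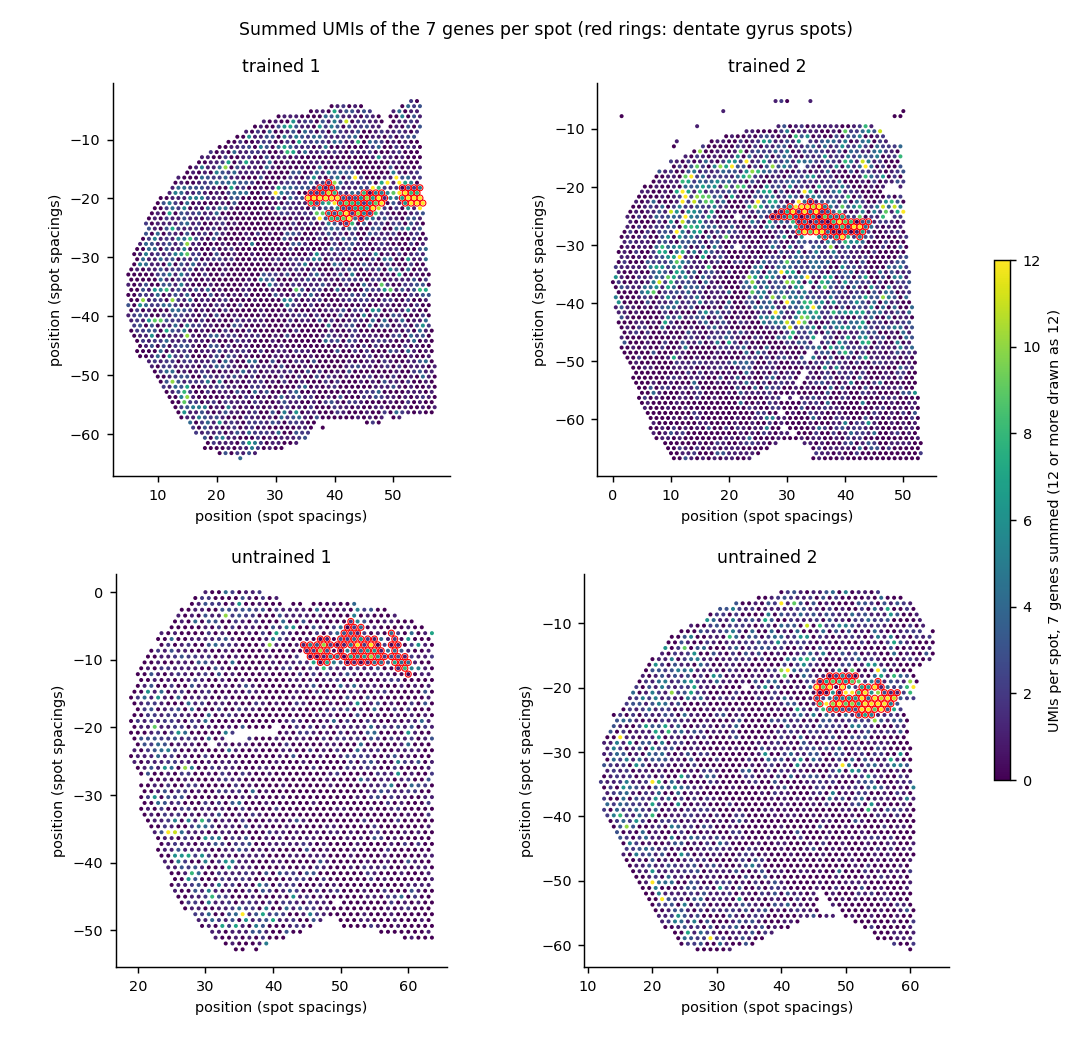
Spots of the 4 sections at their positions on the slide (axes in spot spacings), colored by the summed UMIs of the 7 genes (12 or more drawn as 12); red rings mark the 275 dentate gyrus spots, which were found without these genes. The highest spots follow the dentate gyrus in each section; counts are not scaled for depth, so that untrained 1, the shallowest section, is darker throughout.

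Summed over the 7 genes, the dentate gyrus stood above the remaining 13 regions in every section. The sum was 2427 ± 321 CPM in dentate gyrus spots (SD, n = 4 sections) and 549 ± 33.6 in all other spots. CA1 came next at 828 ± 120, followed by thalamus at 666 ± 59.9 and the layers of cortex, and hypothalamus and the ependymal lining were lowest at 290 ± 68.7 and 264 ± 80.3. Each of the 7 genes was higher in the dentate gyrus than in the rest of its section in all 4 sections. Among the 8810 genes with at least 400 UMIs in all, 9.34% had a dentate gyrus level that did not overlap, section by section, the lower level elsewhere. The 7 genes were picked for this, so that nothing is read from their share.

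The genes also occurred together in single spots. At least 5 of the 7 had a UMI in 91 of 10940 spots, and 58 of these lay in the dentate gyrus, with 14 more within 2 spot spacings of it. The 58 were 21.1% of the 275 dentate gyrus spots. Because the 7 genes were picked for their level there, these counts are a description only. Depth differs between spots, so every spot with at least 1000 UMIs was also thinned to 1000. Of the 105 spots that then kept at least 3 of the genes, 55 lay in the dentate gyrus, which made up 220 of the 7852 spots deep enough to be thinned. The median dentate gyrus spot had 2515.5 and 2478 UMIs in the trained sections and 1105 and 3019 in the untrained ones.

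Prox1 was at 158, 89.7, 146 and 194 CPM in the dentate gyrus of trained 1, trained 2, untrained 1 and untrained 2, and at 18.9, 21.2, 17.4 and 17.3 in all other spots. The dentate gyrus values rest on 36, 19, 15 and 41 UMIs, and the counting intervals of all 4 overlap. The interval was 54.0 to 140 for trained 2, the lowest, and 139 to 263 for untrained 2, the highest. No section comes near its own level elsewhere. The mean log2 ratio was 2.93 ± 0.60 (SD, n = 4), a fold of 7.6. Prox1 is also known from thalamic neurons, oligodendrocytes and interneurons, and the next regions were thalamus at 43.6 ± 13.2 and white matter at 37.8 ± 13.4, whose ranges overlapped. It was at 3.95 ± 3.18 in layer 5 cortex, and in meninges 1 UMI was counted in all. The antisense gene Prox1os had 11, 6, 1 and 2 UMIs in the dentate gyrus of the 4 sections, against 36, 19, 15 and 41 for Prox1.

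Adcy1 had the most UMIs of the 7, at 285, 213, 108 and 239 in the dentate gyrus, or 1249, 1006, 1052 and 1132 CPM, against 247, 256, 289 and 251 elsewhere. It was even across sections, with a mean log2 ratio of 2.09 ± 0.21 (fold 4.25). The dentate gyrus, at 1110 ± 106, was followed by CA1 at 505 ± 73.2, and neither range overlapped that of the next region by mean. CA3, at 263 ± 179, reached into the CA1 range, with 525 in untrained 1 from 16 UMIs. Below CA1, layer 6 cortex at 373 ± 42.8, layer 5 cortex at 338 ± 70.0, upper-layer cortex at 331 ± 13.3 and thalamus at 308 ± 48.9 followed with overlapping ranges. Hypothalamus and the ependymal lining were lowest, at 105 ± 46.7 and 102 ± 48.8. Adcy1 thus had a graded pattern across the 14 regions.

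Of the 9 membrane adenylyl cyclases, Adcy1 was chosen for its level here. Of the 5 others with at least 400 UMIs, 1 was above in the dentate gyrus without overlap and 1 below. Over all genes at that depth, 9.34% were above and 11.5% below. Adcy2 was above, at 127 ± 16.5 against 83.0 ± 7.39 CPM. Adcy5, the cyclase typical of striatum, went the other way, at 51.8 ± 13.6 against 111 ± 6.58. Adcy3, Adcy6 and Adcy8 overlapped, and Adcy4, Adcy7 and Adcy9 had 2, 3 and 1 UMIs in the dentate gyrus, too few to compare.

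Dgkh was at 171, 137, 253 and 223 CPM in the dentate gyrus and at 45.3, 46.0, 47.7 and 43.3 elsewhere. The level elsewhere hardly moved, while both untrained sections were above both trained ones in the dentate gyrus. The mean log2 ratio was 2.07 ± 0.39 (fold 4.19). Striatum-like spots came next at 74.9 ± 16.1 and overlapped upper-layer cortex at 63.8 ± 13.9. White matter, at 12.8 ± 7.98, and the ependymal lining, with 3 UMIs in all, were lowest. Of the 10 diacylglycerol kinases, 5 besides Dgkh had at least 400 UMIs, and 1 of these was above without overlap and 0 below. Over all genes at that depth the shares were 9.34% and 11.5%. Dgkd was the 1 above, at 105 ± 22.5 against 46.7 ± 6.71. Dgkz, the kinase of the list with the most UMIs, was at 263 ± 54.3 against 203 ± 15.3 and higher in 3 of 4 sections. Dgkg and Dgkk, with 24 and 110 UMIs elsewhere and 0 in the dentate gyrus, had too few to compare.

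C1ql2 was at 162, 75.6, 146 and 75.8 CPM in the dentate gyrus and at 9.43, 6.92, 7.52 and 8.63 elsewhere. The 2 high sections are 1 trained and 1 untrained. The values rest on 37, 16, 15 and 16 UMIs, and the counting intervals of all 4 overlap: 114 to 223 for trained 1, the highest, and 43.3 to 123 for untrained 2. The mean log2 ratio was 3.74 ± 0.54 (fold 13.4). C1ql2 was the 1 gene whose dentate gyrus range was reached by another region, the ependymal lining at 0 to 79.0, which rests on 5 UMIs in 4 sections. Layer 5 cortex, at 27.8 ± 15.1 from 21 UMIs, and hypothalamus, at 14.5 ± 4.94 from 42, followed, and layer 6 cortex, with 2 UMIs in all, was last.

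In the list of 9 C1q-like and mossy fiber genes, C1ql2 itself was chosen for its level here, C1ql3 (31.4 ± 3.15 CPM in the dentate gyrus against 7.74 ± 2.40 elsewhere) was a marker that found these spots, and Grik4 (28.3 ± 13.8 against 16.0 ± 2.68) was a marker of CA3. Of the 4 others with at least 400 UMIs, 1 was above without overlap and 1 below, where 9.34% of all genes at that depth were above and 11.5% below. The kainate receptor subunit Grik5 was above, at 187 ± 41.5 against 131 ± 6.49. Nrxn3, a presynaptic partner of C1ql2, was lower there, at 73.4 ± 27.4 against 139 ± 10.1. C1ql1 overlapped, at 16.3 ± 5.84 against 13.1 ± 2.19, and C1ql4 had 0 UMIs in the dentate gyrus.

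Dsp showed the steepest contrast of the 7. It was at 127, 85.0, 87.7 and 180 CPM in the dentate gyrus and at 4.21, 4.65, 4.05 and 10.0 elsewhere. Untrained 2 was highest in both, so that its ratio, 17.9-fold, was the smallest of the 4, while that of trained 1, 30.2-fold, was the largest. The mean log2 ratio was 4.43 ± 0.35 (fold 21.5). From 27.7% to 50.0% of all Dsp UMIs of a section came from the dentate gyrus, which held 2.05% to 3.21% of all UMIs. Thalamus had the most UMIs among the regions that follow, 39 over 4 sections, and was at 11.3 ± 2.26. Choroid plexus, at 16.6 ± 13.8, and medial habenula, at 13.8 ± 15.9, rest on 8 and 10 UMIs and overlap it.

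Of the 14 desmosome genes listed, Dsp was chosen for its level here. Of the 2 others with at least 400 UMIs, Jup and Pkp4, 0 were above in the dentate gyrus without overlap and 1 below. Over all genes at that depth the shares were 9.34% and 11.5%. Jup (plakoglobin), which links desmoplakin to the membrane cadherins, was lower, at 21.1 ± 4.91 against 36.2 ± 6.29. Pkp4 overlapped, at 130 ± 19.4 against 122 ± 6.42, as did Pkp2, at 22.1 ± 10.1 against 13.2 ± 2.19 from fewer UMIs. The desmosomal cadherins Dsg1a, Dsg3 and Dsc1 had no UMI in any section, and Dsg2 and Dsc2 had 4 and 1 UMIs in the dentate gyrus. Periplakin (Ppl), of the same protein family as Dsp, had 6 UMIs in the dentate gyrus and 13 elsewhere.

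Btbd3 had the shallowest contrast. It was at 421, 453, 322 and 421 CPM in the dentate gyrus and at 144, 135, 146 and 132 elsewhere, with a mean log2 ratio of 1.53 ± 0.27 (fold 2.88). Thalamus came next at 234 ± 22.4, without overlap with the dentate gyrus, and itself overlapped upper-layer cortex at 183 ± 34.7 and CA1 at 172 ± 41.6. Striatum-like spots were lowest and even, at 51.4 ± 5.04. Of its 4 relatives with at least 400 UMIs, 1 was above without overlap and 0 below, beside 9.34% and 11.5% of all genes at that depth. Btbd9 was above, at 125 ± 24.6 against 40.2 ± 5.30, while Btbd1, Btbd2 and Btbd6 overlapped.

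Fam163b was at 473, 246, 214 and 407 CPM in the dentate gyrus and at 69.6, 51.7, 86.8 and 76.9 elsewhere. Its ratio varied most, from 2.47-fold in untrained 1 to 6.80-fold in trained 1, with a mean log2 ratio of 2.18 ± 0.62 (fold 4.53). Layer 6 cortex followed at 113 ± 16.1 and overlapped layer 5 cortex at 93.2 ± 26.9 and striatum-like spots at 79.0 ± 30.9. Thalamus, second for Btbd3 and Prox1, was next to last for Fam163b at 24.5 ± 9.40. Its relative Fam163a had 5 UMIs in the dentate gyrus.

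**Figure D2:**
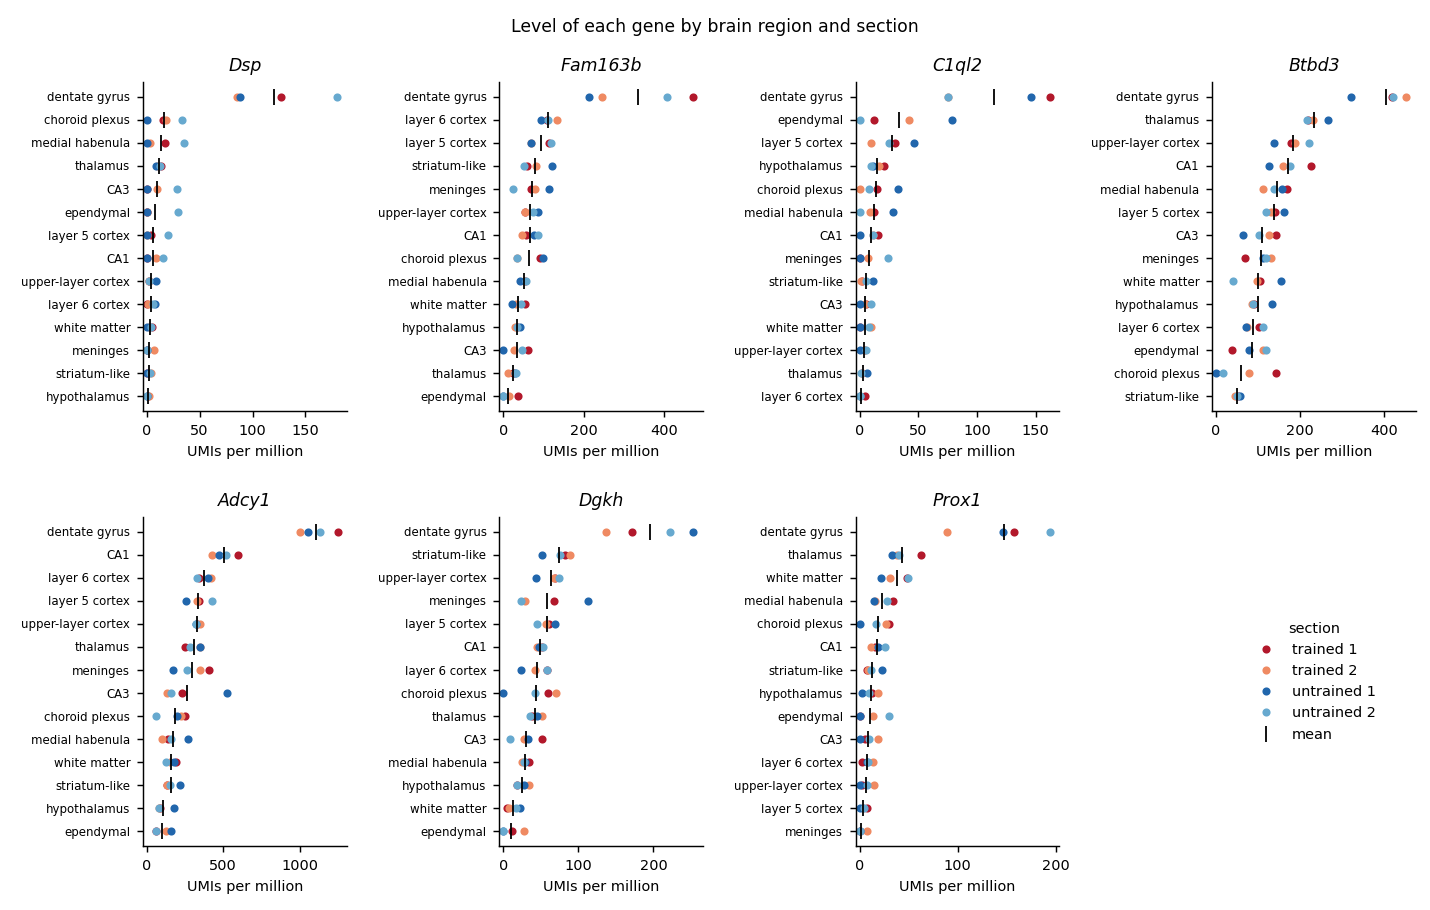
Level of each gene (CPM) in 14 regions, ordered by their mean; points are sections, black ticks the mean. The dentate gyrus is highest for all 7, while the second place is CA1 for Adcy1, thalamus for Btbd3 and Prox1, striatum-like tissue for Dgkh and layer 6 cortex for Fam163b; points at or near 0 rest on few UMIs.

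Levels were lower with distance from the dentate gyrus spots at different rates. In spots 1 spacing away, Btbd3 was at 291 ± 51.0 CPM, against 404 inside, and C1ql2 at 32.1 ± 14.7, against 115. At 2 spacings, Dsp was at 15.6 ± 13.2, Prox1 at 36.2 ± 16.9, Adcy1 at 372 ± 98.7, Dgkh at 40.3 ± 5.92 and Fam163b at 81.1 ± 16.5. Most of the fall was thus over within 2 spacings. Farther out the genes parted. Fam163b was lowest at 4 spacings, 30.4 ± 15.5, and higher again beyond 10, at 71.6 ± 18.1, whereas Adcy1 stayed at 309 to 372 from 2 to 10 spacings and was lowest beyond, at 230 ± 21.2. Dsp was at 2.88 ± 1.10 beyond 10 spacings.

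**Figure D3:**
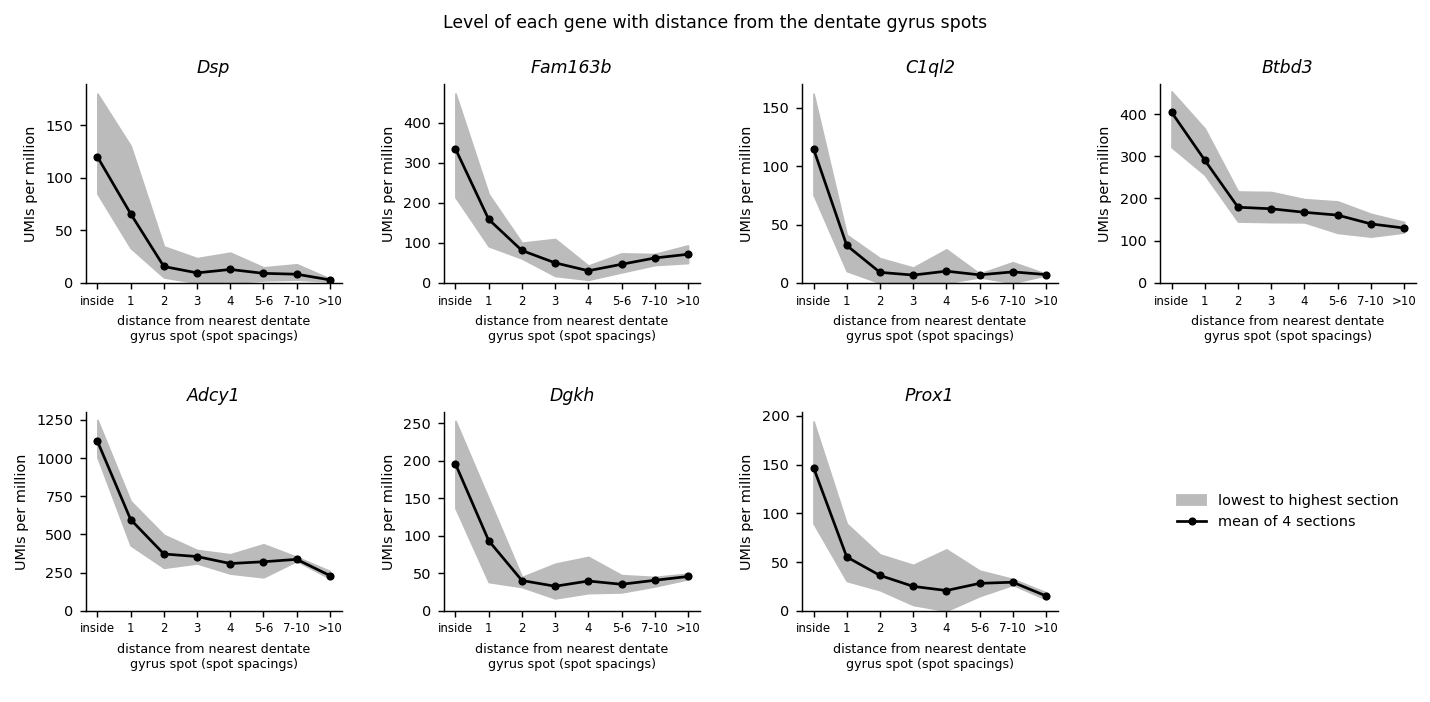
Level of each gene (CPM) inside the dentate gyrus spots and in rings around them, by distance in spot spacings; the line is the mean of 4 sections and the gray band spans the lowest to the highest section. All 7 drop within 2 spacings, and Fam163b is higher again beyond 10 spacings than at 4.

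Within the dentate gyrus, spots were split at the median score of the marker list, which holds none of the 7 genes, into a core and an edge. In trained 1, untrained 1 and untrained 2, 6 of the 7 genes were higher in the core, and in trained 2 the count was 2 of 7. The 7 genes were picked for their level in the dentate gyrus, and the share over all genes was not counted. These counts are therefore a description only. Dsp in untrained 2 was at 258 in the core and 68.8 at the edge, from 32 and 6 UMIs. In trained 2, by contrast, Dsp was at 76.6 and 95.4 and C1ql2 at 51.1 and 106. Fam163b was higher in the core in all 4 sections, by 1.05- to 2.00-fold. Trained 2 also had the most astrocyte markers in its dentate gyrus spots, 2333 CPM for the 6 genes of the list against 968 to 1432 in the other sections, and the most microglia markers, 562 against 162 to 331. Their part in the core and edge values was not tested.

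Over 56 sums (14 regions in 4 sections, on the log2 scale of CPM plus 5), the 7 genes were alike to different degrees. The highest correlation between members was that of Dsp and Prox1, r = 0.72, followed by Fam163b and Dgkh at 0.64 and Adcy1 and Dgkh at 0.60, and the lowest was that of C1ql2 and Dgkh, at 0.16. The sums share sections and depth, and many hold few UMIs, so these are descriptions. Among 8805 other genes with at least 400 UMIs, those most like Adcy1 were Kalrn (r = 0.77), Camk2a (0.71) and Olfm1 (0.70). Those most like Dgkh were Syne1 (0.76), Egr3 (0.71) and Tiam1 (0.71), and those most like Fam163b were Pias1 (0.73), Cacng3 (0.71) and Cttnbp2 (0.71). Btbd3 had Fbxw11 (0.70), Senp3 (0.68) and Tafa2 (0.65), and Prox1 had Napepld (0.67), Il1rap (0.63) and Ppox (0.59). The 2 genes with the fewest UMIs had lower values, Dsp with Adarb2 (0.58), Rreb1 (0.56) and Ahcyl2 (0.55), and C1ql2 with Slc29a4 (0.57), Sertad2 (0.54) and Rpl5 (0.52).

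Other genes of granule neurons were looked at through a list of transcription factors. Prox1 was picked for this pattern and Glis3 and Rfx3 helped to find the spots, so these 3 were set aside. Of the 7 others with at least 400 UMIs, 5 were above in the dentate gyrus without overlap and 0 below, where 9.34% of the 8810 genes at that depth were above and 11.5% below. This list, like the other gene lists here, was chosen with earlier results of these data known, so nothing is read from its share. The 5 were Nfia, Nfib, Zbtb20, which is needed for hippocampal neuron identity (132 ± 50.6 against 25.9 ± 1.92 CPM), Neurod2 (178 ± 40.1 against 49.2 ± 10.6), and Bcl11b (144 ± 49.6 against 42.3 ± 4.50). Neurod1, with fewer UMIs, was at 40.2 ± 20.8 against 13.6 ± 4.78. Neurod6, a factor of pyramidal neurons, was at 54.9 ± 5.46 against 55.1 ± 6.76. Of 6 genes of the immature granule neuron list with at least 400 UMIs, 0 were above and 4 below (Calb2, Tubb3, Stmn1 and Stmn2), against the same 11.5% of all genes. Calb2 also stood in the list of mossy cells, and Tubb3, Stmn1 and Stmn2 had 9803, 29038 and 13569 UMIs elsewhere. The count is therefore not read as a result about immature granule neurons. Dcx had 4 UMIs in the dentate gyrus and 311 elsewhere, and Eomes, which marks intermediate progenitors, had no UMI in any section.

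The training comparison asked whether the 7 genes differed in the dentate gyrus 3 days after the retention test. None of the 7 passed an adjusted p of 0.05, and 0% of the 4785 genes tested did (edgeR's quasi-likelihood test, 4 section sums). At an unadjusted p under 0.05 the counts were 0 of 7 and 205 genes (4.28%). Dgkh came closest, at 171 and 137 CPM in trained against 253 and 223 in untrained sections, a log2 fold change of -0.55 ± 0.29 (SE; adjusted p = 0.993). It was the 1 gene of 7 whose groups did not overlap, where 33.3% of all genes tested did not, so that this count is below the background share. Prox1 (-0.44 ± 0.34) and Dsp (-0.38 ± 0.36) were also lower in trained sections, and C1ql2 (0.29 ± 0.39), Btbd3 (0.27 ± 0.24), Fam163b (0.19 ± 0.28) and Adcy1 (0.10 ± 0.24) higher, all with an adjusted p of 0.996. The median of the 7, 0.10, stood beside 0.02 for all genes. With 2 sections a group, these differences did not exceed the spread that the test used. That spread is mostly shared over all genes (28.1 prior against 2 residual degrees of freedom) and is not each gene's own spread between sections. Beside these values, the summed dentate gyrus markers were at 1034 and 713 in trained and 1189 and 976 in untrained sections, the astrocyte list at 968 and 2333 against 1432 and 1146, and the choroid plexus list at 4702 and 236 against 1013 and 2226. The oligodendrocyte list was at 1179 and 2309 against 1920 and 1747 and the list of hilar mossy cells at 87.6 and 165 against 156 and 109, and the part of these cells in the values was not tested.

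**Figure D4:**
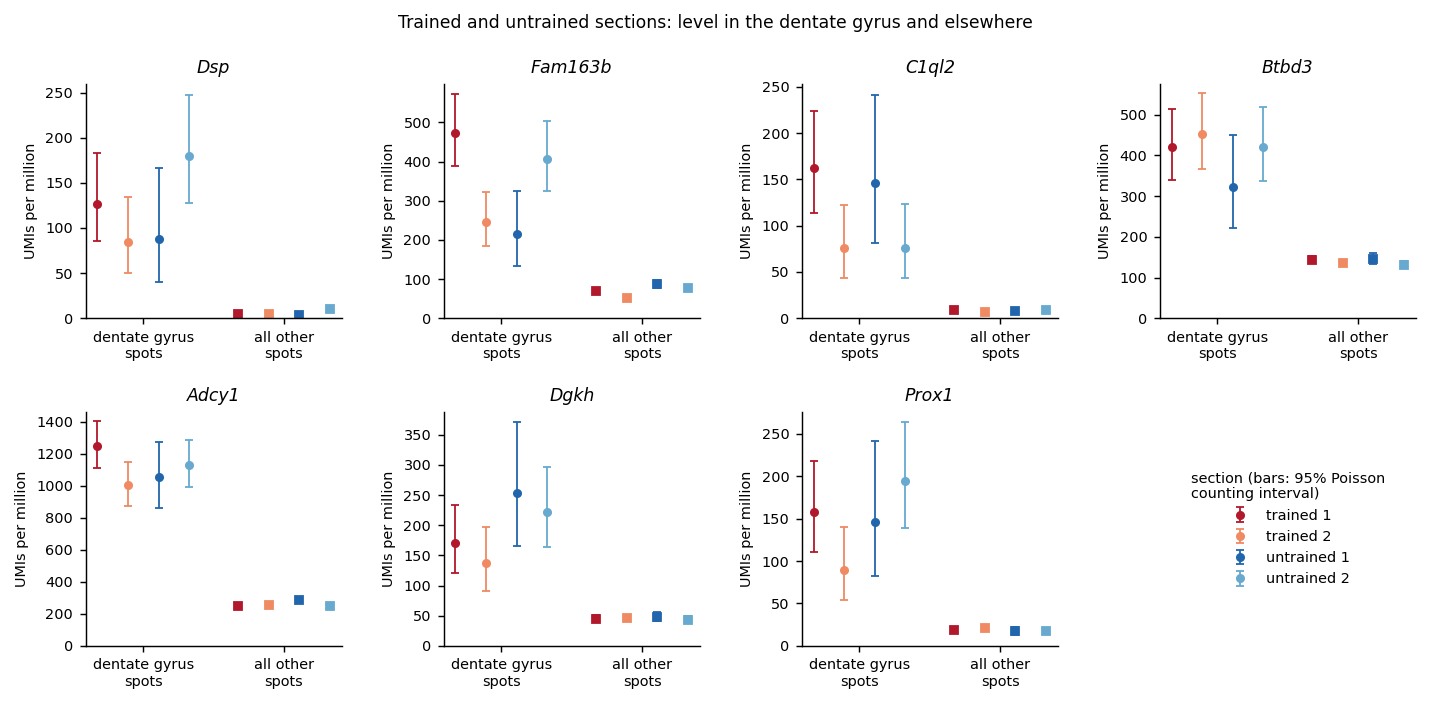
Level of each gene (CPM) in dentate gyrus spots (circles) and all other spots (squares) of the 4 sections, with 95% Poisson intervals that cover counting error only. In the dentate gyrus both trained sections lie below both untrained ones for Dgkh, and for the other 6 genes the groups overlap there. In all other spots, which were not tested on their own, both trained sections lie below for Fam163b and above for Prox1. The share of all genes without overlap was not counted there (33.3% in the dentate gyrus, 41% over whole sections), so nothing is read from this.

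Over whole sections the fold changes of all 7 genes were at or below 0, from -0.78 for Dsp to -0.02 for Prox1, with a median of -0.15 beside 0.01 for all genes. None of the 7 was called, as were 2 of 13810 genes (0.0145%), and at an unadjusted p under 0.05 the counts were 1 of 7 and 7.96%. That 1 was Fam163b, at 82.6 and 55.7 CPM in trained against 90.4 and 87.5 in untrained sections (log2 fold change -0.44 ± 0.19, adjusted p = 0.604). It was also the 1 gene whose groups did not overlap, against 41% of all genes. Dsp followed at 8.15 and 6.29 against 6.46 and 15.5 (-0.78 ± 0.36, adjusted p = 0.622), where untrained 2 alone was high. Without untrained 2 the fold change of Dsp was 0.06. Without trained 1, Fam163b and Dsp were called, at fold changes of -0.81 and -1.02, as were many other genes. With trained 2 alone in its group, the spread between trained mice was not measured. The dentate gyrus spots held 3.21%, 2.05%, 2.88% and 3.21% of the UMIs of trained 1, trained 2, untrained 1 and untrained 2, a share that follows both the number of spots and the UMIs in each.

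Outside the dentate gyrus fewer of the genes could be tested, and none was called. In CA1 spots 4 of the 7 were tested and 0 called (0.0193% of all genes; 0 against 4.2% at an unadjusted p under 0.05), and in CA3 spots 2 were tested and 0 called (0%; 0 against 5.09%). In cortex spots 4 were tested and 0 called (0%; 0 against 4.79%), and in thalamus spots 5 were tested and 0 called (0.271%; 1 against 6.74%). The 1 in thalamus was Fam163b, at 23.9 and 11.5 CPM in trained against 29.9 and 32.7 in untrained sections (log2 fold change -1.06 ± 0.41, adjusted p = 0.496), from 10 to 21 UMIs a section. In CA1 it was at 56.4 and 48.0 against 77.1 and 86.9 (-0.71 ± 0.37, adjusted p = 0.991).

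Whether training went with a different change in the dentate gyrus than elsewhere was tested as an interaction, with the section as a block. None of the 7 was called, as was 0% of 12012 genes, and at an unadjusted p under 0.05 the counts were 1 of 7 and 4.31%. Fam163b had the smallest p, with an effect in the dentate gyrus that exceeded the effect elsewhere by 0.64 ± 0.26 (adjusted p = 1). Prox1 (-0.59 ± 0.37), Dgkh (-0.49 ± 0.30), Dsp (0.47 ± 0.47), C1ql2 (0.36 ± 0.47), Btbd3 (0.32 ± 0.24) and Adcy1 (0.27 ± 0.21) had wider errors relative to their size, and all had an adjusted p of 1.

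**Figure D5:**
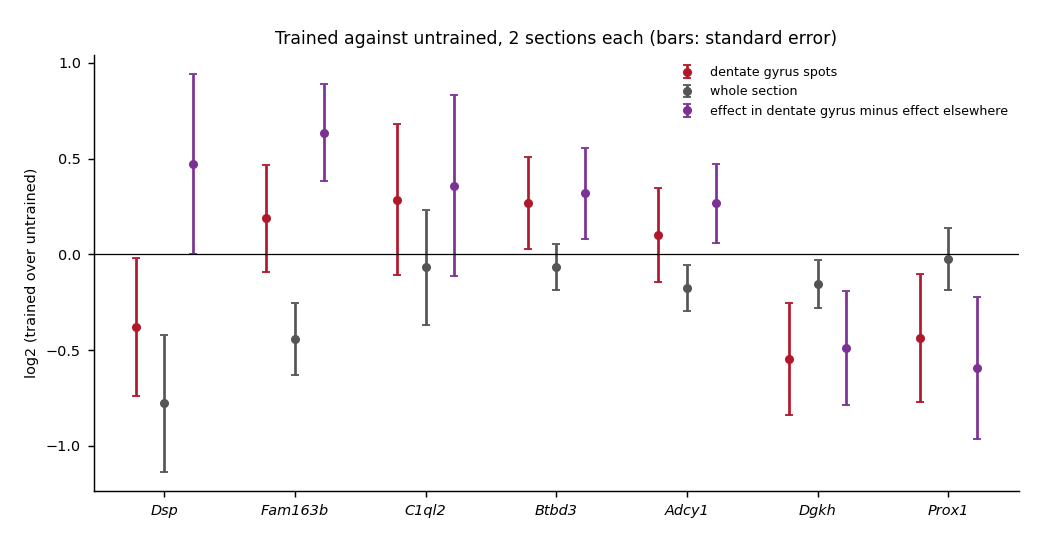
Log2 fold change of trained over untrained sections for the 7 genes, in dentate gyrus spots, over the whole section, and as the effect in the dentate gyrus minus that in all other spots; bars are standard errors from edgeR with 2 sections a group. Dgkh, Prox1 and Dsp lie below 0 in the dentate gyrus and no gene passed the adjusted threshold in any of the 3.

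The lists of related genes were read in the dentate gyrus too, and they include Adcy1, Dgkh, C1ql2, Dsp and Prox1 themselves. No gene of these lists passed the test there. Of the adenylyl cyclases 3 of 9 were tested, of the diacylglycerol kinases 3 of 10, of the C1q-like and mossy fiber list 4 of 9, of the desmosome list 2 of 14, of the granule neuron transcription factors 9 of 12 and of the immature granule neuron list 5 of 12, and 0 of each were called in either direction. Among the transcription factors the median log2 fold change was -0.18, beside 0.02 for all genes, with Zbtb20 at -0.59 ± 0.37 and Rfx3 at 0.33 ± 0.39. Over whole sections all 12 were tested, 0 were called, and all 12 lay below 0, with a median of -0.29 beside 0.01 for all genes. The 12 include Prox1, and Glis3 and Rfx3, which are also dentate gyrus markers. Region markers shifted in both directions over whole sections, none of them called. Below 0 lay 10 of the 11 dentate gyrus markers (median -0.27) and all 6 CA1 markers (-0.23). Above 0 lay all 8 striatum-like markers (0.46), all 6 ependymal markers (0.42) and 9 of the 10 white matter markers (0.27). So did 8 of 10 for thalamus (0.29), 5 of 6 for layer 6 cortex (0.30) and 5 of 6 for medial habenula (0.19). Only 1 of 7 for meninges (-0.57), 1 of 8 for choroid plexus (-0.38) and 2 of 8 for upper-layer cortex (-0.20) did. Layer 5 cortex (0.05), hypothalamus (0.03) and CA3 (-0.06) were mixed. The part of tissue makeup in the whole-section values of the transcription factors and of the 7 genes was not tested.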

How the data were processed

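Visium sections of 2 trained and 2 untrained mice were analysed from the UMI counts that the authors deposited, unnormalized integers for every gene in every spot. The section, 1 per mouse, was the replicate. The sources name different versions of the reference (mm10 in the methods, mm39 and GRCm39 with Cell Ranger 8 and STAR in the submitters' processing notes), so coordinates were taken by gene ID from GENCODE vM21 (GRCm38), which held 32158 of the 32285 genes.

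The 7 genes, the marker lists, the gene lists and the rule for naming genes were chosen with earlier results of these data known. The genes named are the 7 members, the 3 genes most alike to each, and genes of lists related to a member. Each spot, averaged with its 6 neighbors, was scored for 14 marker lists. The leading list gave the region where its standardized score was at least 1 (1.25 for small structures), in patches of at least 8 spots. Dentate gyrus, CA1 and CA3 calls were kept only in the largest group of them linked by gaps of at most 2 spot spacings. UMIs were summed per region and section, and sums were compared with edgeR 4.0.16 in R 4.3.3 (filterByExpr, TMM, quasi-likelihood F-test), with Benjamini-Hochberg adjustment over all genes tested and a threshold of 0.05. Standard errors are the fold change divided by the root of F, and they rest largely on a variance shared over genes. The tests were tested on simulated data. Intervals are exact Poisson intervals at 95% and cover counting error only. Alternatives were DESeq2 1.42.0, no filter on low counts, sums thinned to the smallest total, library sizes without the mitochondrial genes and without Ttr, Bc1 and Gm42418, the replicate number as a block, other ways to find dentate gyrus spots, and the omission of each section.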

Additional observations from a re-analysis of the deposited data

How the results depend on the processing

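All 7 genes were higher in the dentate gyrus in every section under every setting tried, and the mean log2 ratio of Dsp moved most, to 3.91 with markers of the spot alone. None of the 7 was called in the dentate gyrus or in the interaction under any alternative. The counts of genes called rest on few sections. With a section left out, its group holds 1 section and the spread between mice of that group is not measured. In the dentate gyrus the count was 1 without a filter, 1 with markers of the spot alone, and 0 to 67 with a section left out. In CA1 it was 0 with DESeq2, 2 without a filter, 0 without the mitochondrial genes, Ttr, Bc1 and Gm42418, and 1 to 25 with a section left out. In CA3 it was 2 with thinned sums and 0 to 2 with a section left out, and in cortex 23 without a filter and 5 to 135. In thalamus it was 0 with DESeq2, 15 without a filter, 0 with thinned sums and 6 to 114 with a section left out. Over whole sections it was 21 with DESeq2, 211 without a filter, 4 with thinned sums and 2 to 848 with a section left out. The interaction gave 1 with thinned sums, 1 without those abundant genes and 0 to 59 with a section left out. The highest count of each range came without trained 1, and the cause was not tested.

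With the replicate number as a block (replicate block), 3 genes were called in the dentate gyrus, 6 in CA1, 2 in CA3 and 47 over whole sections. Same-numbered sections did not deviate together (correlation -0.03 to 0.05), so the numbers were not taken to pair them.

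Fold changes near 0 changed sign. In the dentate gyrus C1ql2 was at -0.21 with thinned sums and -0.13 in stricter spots, and Adcy1 at -0.0060 with thinned sums and -0.014 with markers of the spot alone. With a section left out Dsp ran from -0.69 to 0.32, Fam163b from -0.31 to 0.78 and C1ql2 from -0.25 to 0.71. Over whole sections C1ql2 was at 0.10 with thinned sums, and with a section left out Dsp ran from -1.19 to 0.062, C1ql2 from -0.55 to 0.34, Btbd3 from -0.18 to 0.037 and Prox1 from -0.10 to 0.049. In the interaction Dsp was at -0.028 and C1ql2 at -0.25 with thinned sums, and C1ql2 ran from -0.25 to 0.81 with a section left out. Dsp, C1ql2 and Prox1 had 9 to 41 UMIs in the dentate gyrus of a section, which limits what could be seen at this depth.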
